A study of Homo sapiens with 120 samples.

Results

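The let-7 family guide strands are the 9 mature microRNAs (miRNAs) let-7a-5p, let-7b-5p, let-7c-5p, let-7d-5p, let-7e-5p, let-7f-5p, let-7g-5p, let-7i-5p and miR-98-5p. They were taken by name from 2652 mature miRNA names in the small RNA count tables of experiments 1 and 2, and all 9 were measured. The study transfected HEK293T cells, a human embryonic kidney line, with long double-stranded RNA (dsRNA) and sequenced small RNA of total RNA and of RNA bound to Argonaute (Ago) proteins. The bound RNA was obtained by Ago affinity purification with a peptide and is called the pulldown here. Each experiment had 48 libraries, from 4 cell lines, 3 transfections and 2 fractions, with 2 libraries a group and so 6 for each line and fraction.

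All lines, the controls included, carried a knockout of PKR, the dsRNA-activated kinase, and the line with no further deletion is called parental. Experiment 1 compared the parental line with PACTko, TRBPko and PACTko_TRBPko cells, which lack PACT, TRBP or both. Experiment 2 compared it with lines labelled Ago2ko, Ago1ko_Ago2ko and Dicerko. The transfections were mock and the dsRNAs dsGFPc and dsGFPd, delivered with a Lipofectamine lipid reagent. The mRNAs of the deleted genes were not measured, so the lines are known by their labels alone, and nothing in the labels ties replicates to separate cultures. P-values therefore measure the spread between libraries, which may be technical.

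let-7 miRNAs are made from hairpin precursors that Dicer cuts in the cytoplasm, with TRBP and PACT as its dsRNA-binding partner proteins. 1 strand of the product, the guide, is then held by an Ago protein and pairs through its seed with target mRNAs, among them those of RAS and HMGA2. The family is known for promoting differentiation, and LIN28 proteins block the maturation of its precursors. The sequences below, from RefSeq (GRCh38.p14), matched 9 of 9 names and are shown because the members differ at so few bases. Capitals mark the seed, bases 2 to 8.
let-7a-5p: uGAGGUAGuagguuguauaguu
let-7b-5p: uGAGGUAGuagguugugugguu
let-7c-5p: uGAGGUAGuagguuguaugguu
let-7d-5p: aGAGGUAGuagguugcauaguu
let-7e-5p: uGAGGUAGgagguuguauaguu
let-7f-5p: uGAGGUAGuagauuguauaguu
let-7g-5p: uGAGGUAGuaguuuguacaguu
let-7i-5p: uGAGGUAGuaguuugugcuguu
miR-98-5p: uGAGGUAGuaaguuguauuguu

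Each member is 22 bases long and all 9 share the seed. Counted from 1 at the 5′ end and against let-7a-5p, let-7c-5p differs by A19G, let-7e-5p by U9G, let-7f-5p by G12A and let-7b-5p by A17G and A19G. let-7d-5p differs by U1A and U16C, let-7g-5p by G12U and U18C, let-7i-5p by G12U, A17G, U18C and A19U, and miR-98-5p by G11A and A19U. Of the 36 pairs of members, 4 are 1 base apart and 10 are 2 bases apart, so the split of reads between close members is uncertain where the counting allowed mismatches. Of 2370 mature human names with a sequence, 11 have this seed. The 2 that are not members are miR-4458, with 1118 reads in 55 of the 96 libraries, and miR-4500, with 15 reads in 14.

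The members come from 12 hairpins in 8 chromosomes of GRCh38.p14. On chromosome 9, let-7a-1 (chr9:94175957-94176036), let-7f-1 (chr9:94176347-94176433) and let-7d (chr9:94178834-94178920) lie on the plus strand within the long non-coding RNA gene MIRLET7A1HG. let-7a-3 (chr22:46112749-46112822) and let-7b (chr22:46113686-46113768) are neighbours on the plus strand of chromosome 22. let-7f-2 (chrX:53557192-53557274) and miR-98 (chrX:53556223-53556341) lie on the minus strand within HUWE1. let-7a-2 (chr11:122146522-122146593) lies in MIR100HG, let-7c (chr21:16539828-16539911) in MIR99AHG, let-7e (chr19:51692786-51692864) in SPACA6, let-7g (chr3:52268278-52268361) in WDR82 and let-7i (chr12:62603686-62603769) in MIRLET7IHG. The hairpins whose guides moved most without PACT and TRBP, those of let-7b and let-7e, are shown with that of let-7c, whose guide did not pass that test against the parental line. Here capitals mark the guide.
let-7b hairpin: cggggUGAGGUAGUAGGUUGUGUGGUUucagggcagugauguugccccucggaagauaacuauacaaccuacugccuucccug
let-7e hairpin: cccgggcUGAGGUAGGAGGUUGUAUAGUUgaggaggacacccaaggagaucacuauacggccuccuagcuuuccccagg
let-7c hairpin: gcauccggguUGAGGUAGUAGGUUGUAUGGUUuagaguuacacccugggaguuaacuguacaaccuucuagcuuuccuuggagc
Between the 2 annotated arms lie 32 bases in the let-7b hairpin and 23 in those of let-7e and let-7c.

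Values below are the authors' normalised read counts, called levels. In experiment 1 total RNA held 406531 to 1104630 miRNA reads a library and pulldown 2457547 to 13457933. In the lines of experiment 2 that have Dicer the ranges were 910155 to 4340650 and 1856249 to 7167395. Dicerko libraries held only 39916 to 180343 and 47006 to 593510 miRNA reads. A list of 7 miRNAs typical of HEK293 cells took 32.0 to 41.5% of the miRNA reads in total RNA of experiment 1, and 13 markers of other cell types took 0.0120 to 0.0337%, 2 of them at 0 in every library. In the lines with Dicer, the ranges of the HEK293 list were 31.7 to 43.0% in pulldown of experiment 1, 18.1 to 44.2% in total RNA of experiment 2 and 10.1 to 41.6% in its pulldown. Those of the other markers were 0.0135 to 0.0451%, 0.0119 to 0.0489% and 0.00438 to 0.0517%.

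In parental total RNA the family was led by let-7f-5p and let-7a-5p. Over the 6 libraries of experiment 1, let-7f-5p had a lowest, median and highest level of 18956, 21058 and 24263, and let-7a-5p of 16180, 17191 and 19433. They were the 10th and 13th most abundant of all miRNAs and took 34.1 and 28.2% of the family's reads. let-7c-5p followed at 8434 ± 1010 (SD, n = 6) and let-7e-5p at 6217 ± 602. let-7g-5p reached 3459 ± 301, let-7i-5p 2218 ± 270 and miR-98-5p 1886 ± 319. The lowest were let-7b-5p at 882 ± 91.4 and let-7d-5p at 439 ± 55.7, a level of the 100th miRNA. The ranges of let-7f-5p and let-7a-5p, of let-7c-5p and let-7e-5p, and of let-7i-5p and miR-98-5p overlapped, although the first of each pair was higher in 6 of 6 libraries. Other neighbours in this order did not overlap. In experiment 2 the order was the same except that let-7a-5p, at 13115 ± 2975, was above let-7f-5p, at 10441 ± 2536, in 6 of 6 libraries. In libraries from bulk cultures, fewer cells that make a miRNA and less of it per cell cannot be told apart.

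The order differed in the parental pulldown. let-7f-5p again led experiment 1, with 24778, 32761 and 43780 as its lowest, median and highest level. let-7a-5p at 14597 ± 3081 (SD, n = 6), let-7c-5p at 12400 ± 4667 and let-7e-5p at 11501 ± 3172 overlapped one another. let-7b-5p, next to last in total RNA, had a mean of 1798 ± 604, above those of let-7g-5p and let-7i-5p. Its range overlapped those of both, and it was above let-7g-5p in 4 of 6 libraries. miR-98-5p, at 368 ± 131, overlapped let-7d-5p at 354 ± 94.9. The pulldown of experiment 2 had the same order of means, but not the same order in each library. There let-7c-5p was above let-7e-5p in 2 of 6 libraries and let-7g-5p above let-7i-5p in 3 of 6. In its replicate 1 libraries let-7i-5p (850 to 968) was above let-7b-5p (531 to 807).

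**Figure D1:**
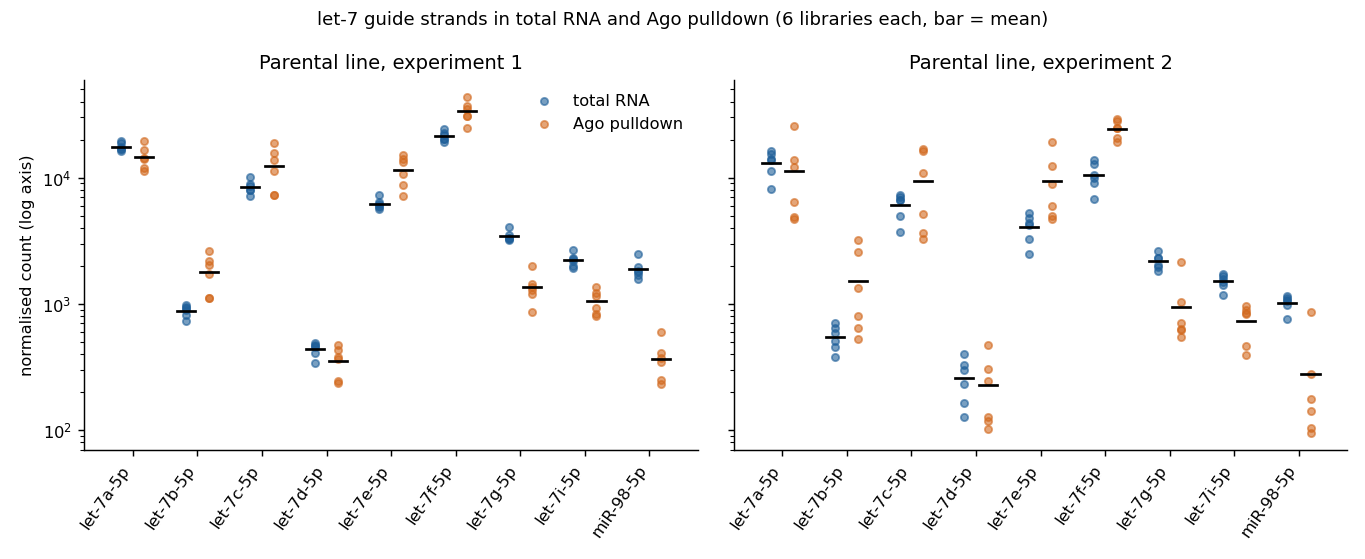
Level of each member (authors' normalised read count, log axis) in parental total RNA and Ago pulldown, with experiments 1 and 2 in separate panels. Points are the 6 libraries and bars their means; miR-98-5p, let-7g-5p and let-7i-5p sit lower in pulldown than in total RNA in both experiments, and let-7f-5p, let-7e-5p and let-7b-5p higher.

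Some members were over-represented and others under-represented in the Ago pulldown of parental cells. limma called 7 of 9 members in experiment 1 and 6 of 9 in experiment 2, where it called 65.3% and 29.8% of all miRNAs tested. The members' median log2 change from total RNA to pulldown was -0.29 in both experiments, beside 0.45 and 0.31 for all miRNAs. This contrast compares libraries of different depth and composition, so a change is relative to the rest of the miRNAs.

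miR-98-5p stood lowest in pulldown relative to total RNA. Its levels were 1586, 1796 and 2489 (lowest, median, highest) in total RNA of experiment 1 and 233, 361 and 595 in pulldown, with no overlap. It fell by 2.41 on the log2 scale (SE 0.21, limma adjusted p = 1.43e-07) in experiment 1 and by 2.35 (SE 0.41, limma adjusted p = 0.000668) in experiment 2, where the ranges overlapped through 1 pulldown library at 864. let-7g-5p fell by 1.39 (limma adjusted p = 4.07e-06) and 1.37 (limma adjusted p = 0.00407). let-7i-5p, which like let-7g-5p has G12U and U18C, fell by 1.10 (limma adjusted p = 1.93e-05) and 1.11 (limma adjusted p = 0.00677).

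let-7f-5p, let-7e-5p and let-7b-5p rose in both experiments. let-7f-5p rose by 0.64 (limma adjusted p = 0.000743) and 1.24 (limma adjusted p = 0.00101) on the log2 scale, and its total and pulldown libraries did not overlap in either experiment. let-7e-5p rose by 0.84 (limma adjusted p = 0.000113) and 1.05 (limma adjusted p = 0.0237), and let-7b-5p by 0.96 (limma adjusted p = 0.000357) and 1.17 (limma adjusted p = 0.0338). In experiment 2 the call of let-7b-5p was lost in 8 of 12 fits that each left out 1 library, with an adjusted p of up to 0.0908, and that of let-7e-5p in 6, without any replicate 1 total library or any replicate 2 pulldown library (limma adjusted p 0.0547 to 0.0654). let-7c-5p rose by 0.47 in experiment 1 (limma adjusted p = 0.0494), a call lost in 9 of 12 such fits (up to 0.147), and had a log2 change of 0.35 in experiment 2, which did not pass. let-7a-5p, at -0.29 and -0.47, and let-7d-5p, at -0.35 and -0.29, passed in neither, though let-7a-5p did in experiment 1 without dsGFPd pulldown replicate 2 (limma adjusted p = 0.0153). With every library scaled to the same sum, 3 members rose and 5 fell in experiment 1, let-7a-5p and let-7d-5p among the latter, and 1 rose and 3 fell in experiment 2. The share of all miRNAs called under that scaling is not given here.

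The contrast within the family did not depend on the scaling, because a ratio of 2 members in 1 library cancels it. Relative to let-7a-5p of the same group and replicate, let-7b-5p, let-7c-5p, let-7e-5p and let-7f-5p were higher in pulldown than in total RNA in 6 of 6 parental pairs of both experiments. Their mean log2 excess in experiment 1 was 1.25 ± 0.485, 0.76 ± 0.404, 1.13 ± 0.405 and 0.93 ± 0.132 (SD, n = 6). let-7g-5p, at -1.10 ± 0.424, and miR-98-5p, at -2.12 ± 0.554, were lower in 6 of 6 pairs of both. let-7i-5p was lower in 6 of 6 in experiment 1 and in 3 of 6 in experiment 2. In that parental pulldown of experiment 2 both members split by replicate number. let-7a-5p was at 4676 to 6378 in replicate 1 and 12054 to 25444 in replicate 2, and let-7i-5p at 850 to 968 and 395 to 830. let-7b-5p, let-7c-5p and let-7e-5p, with 10, 9 and 9 G bases, are the members richest in G, and let-7f-5p, let-7g-5p and miR-98-5p have 7 each. Whether base content or single substitutions bear on the pulldown was not tested. Neighbouring miRNAs of the same host transcripts were not uniform either. In experiment 1 miR-99b-5p rose by 1.23 and miR-125a-5p by 1.03, and miR-99a-5p fell by 0.41. The study's protocol checks the pulldown by RT-qPCR of 2 miRNAs, and here miR-16-5p fell by 0.66 and miR-21-5p by 0.61.

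In cells that lack PACT alone no let-7 member passed the test in total RNA. PACT is a dsRNA-binding protein that binds Dicer and also activates PKR. let-7a-5p levels were 14368, 17110 and 20489 (lowest, median, highest of 6) in PACTko, across those of the parental line. limma called 0 of 9 members, beside 1.42% of all 422 miRNAs, edgeR also called 0, and 1 member, let-7b-5p with a log2 change of -0.26 (SE 0.10), was under an unadjusted p of 0.05. The members' median log2 change was -0.03 and that of all miRNAs -0.01.

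In cells that lack TRBP alone the family split. TRBP is the closely related Dicer partner, and in TRBPko cells 4 members rose and 2 fell in total RNA. These are 6 of 9 members, where 20.4% of all miRNAs were called in either direction. The members' median log2 change was 0.23, beside 0.02 for all miRNAs. let-7i-5p had levels of 1919, 2212 and 2677 in the parental line and 2754, 3121 and 4080 in TRBPko, with every TRBPko library above every parental one. It rose by 0.54 on the log2 scale (SE 0.09, limma adjusted p = 4.27e-05). let-7e-5p went the other way, from 5623, 6093 and 7314 to 4034, 4243 and 5146, again with no overlap, and fell by 0.50 (SE 0.07, limma adjusted p = 3.27e-06).

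The ratio of let-7e-5p to let-7i-5p was 2.81 in the parental line, 2.88 in PACTko, 1.38 in TRBPko and 2.18 in PACTko_TRBPko cells. In TRBPko cells let-7f-5p rose by 0.29 (limma adjusted p = 0.00289) and miR-98-5p by 0.46 (limma adjusted p = 0.00457), and let-7b-5p fell by 0.37 (limma adjusted p = 0.00708). let-7c-5p rose by 0.23 (limma adjusted p = 0.0489), a call lost in 15 of 24 fits without 1 library, with an adjusted p of up to 0.146. let-7d-5p at 0.25, let-7g-5p at 0.13 and let-7a-5p at 0.02 did not pass. Under quantile normalization let-7e-5p was no longer called (-0.07) and let-7a-5p was (0.35), so that 5 rose and 1 fell.

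**Figure D2:**
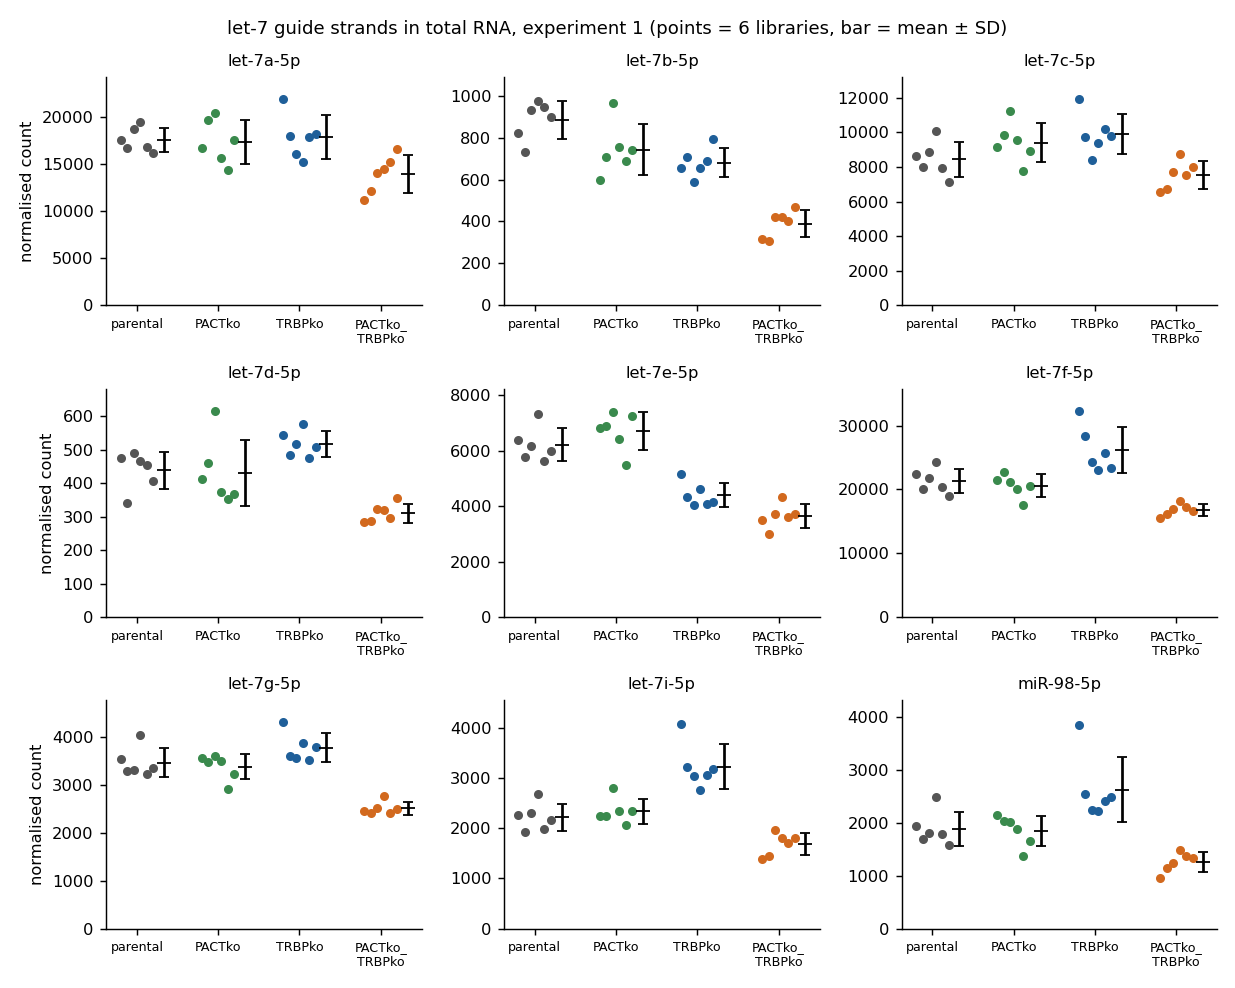
Level of each of the 9 members in total RNA of experiment 1, 1 panel a member, by cell line (authors' normalised read count). Points are the 6 libraries of a line, and the line and bar give mean ± SD; in PACTko_TRBPko cells let-7b-5p, let-7e-5p, let-7f-5p, let-7g-5p and miR-98-5p lie below every parental library.

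Nearly the whole family was lower in cells that lack both partners. In PACTko_TRBPko total RNA 8 of 9 members fell against the parental line and none rose, where 8.53% of all miRNAs fell. The members' median log2 change was -0.46 and that of all miRNAs -0.02. The family's share of all miRNA reads, which does not depend on the authors' scaling, was 7.71 ± 0.744% (SD, n = 6) in the parental line, 8.22 ± 0.753% in PACTko, 8.52 ± 0.902% in TRBPko and 6.44 ± 0.304% in PACTko_TRBPko.

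let-7b-5p moved most. Its levels were 730, 913 and 973 (lowest, median, highest) in parental and 307, 411 and 469 in PACTko_TRBPko cells, with no overlap. It fell by 1.19 on the log2 scale (SE 0.10, limma adjusted p = 6.22e-10). let-7e-5p went from the parental levels above to 2997, 3659 and 4317 and fell by 0.77 (SE 0.07, limma adjusted p = 1.15e-09), also with no overlap. Of the chromosome X pair, miR-98-5p went from 1586, 1796 and 2489 to 958, 1291 and 1486. It fell by 0.58 (SE 0.12, limma adjusted p = 0.00075), and these groups did not overlap either. let-7f-5p and let-7g-5p fell by 0.34 and 0.46 without overlap, and let-7d-5p by 0.49, let-7i-5p by 0.40 and let-7a-5p by 0.34 with overlap. let-7c-5p, which differs from let-7a-5p by 1 base, had levels of 7115, 8307 and 10067 in the parental and 6552, 7627 and 8745 in the double knockout line. Its log2 change of -0.16 (SE 0.09, limma adjusted p = 0.254) did not pass. The 8 calls held in 24 of 24 fits without 1 library.

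The double knockout also stood below each single knockout. Against TRBPko 9 of 9 members fell, where 18% of all miRNAs fell, and the members' median was -0.63 beside -0.04. miR-98-5p fell by 1.05, let-7i-5p by 0.94 and let-7b-5p by 0.82, and let-7e-5p, already lower in TRBPko, by 0.27. The others were let-7d-5p (-0.74), let-7f-5p (-0.63), let-7g-5p (-0.59), let-7c-5p (-0.39) and let-7a-5p (-0.36). Against PACTko 9 of 9 fell, where 5.92% of all miRNAs fell, and the medians were -0.45 and 0.01. let-7b-5p fell by 0.93, let-7e-5p by 0.88, miR-98-5p by 0.56, let-7i-5p by 0.48, let-7d-5p by 0.45, let-7g-5p by 0.43 and let-7f-5p by 0.29. In that comparison let-7a-5p (-0.32) was no longer called without PACTko dsGFPc replicate 1, PACTko dsGFPd replicate 1, or the double knockout's mock or dsGFPc replicate 1 (limma adjusted p 0.0590 to 0.0760). let-7c-5p (-0.32) was lost without the double knockout's mock replicate 1 (limma adjusted p = 0.0501). These comparisons share libraries and are given side by side.

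The interaction asks whether the double knockout differs from the sum of the single knockouts' log2 changes. It was negative for 9 of 9 members and passed for 8, where 9.24% of all miRNAs fell by this test, and its median was -0.56 for members and -0.05 for all miRNAs. let-7i-5p had the value -1.02 (SE 0.13, limma adjusted p = 3.27e-07) and miR-98-5p -1.02 (SE 0.17, limma adjusted p = 3.65e-05). For let-7i-5p the single knockouts gave 0.08 and 0.54 and the double knockout -0.40. let-7d-5p had -0.69, let-7f-5p -0.59, let-7b-5p and let-7g-5p -0.56, let-7c-5p -0.55 and let-7e-5p -0.39. let-7a-5p, at -0.34 (limma adjusted p = 0.063), did not pass, though it did in 6 of 24 fits without 1 library: the mock replicate 2 library of the parental line, PACTko dsGFPc replicate 2, TRBPko mock replicate 2 or dsGFPd replicate 1, and PACTko_TRBPko dsGFPc or dsGFPd replicate 2 (limma adjusted p 0.0349 to 0.0490). With every library scaled to the same sum, and with quantile normalization, 9 members passed.

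**Figure D3:**
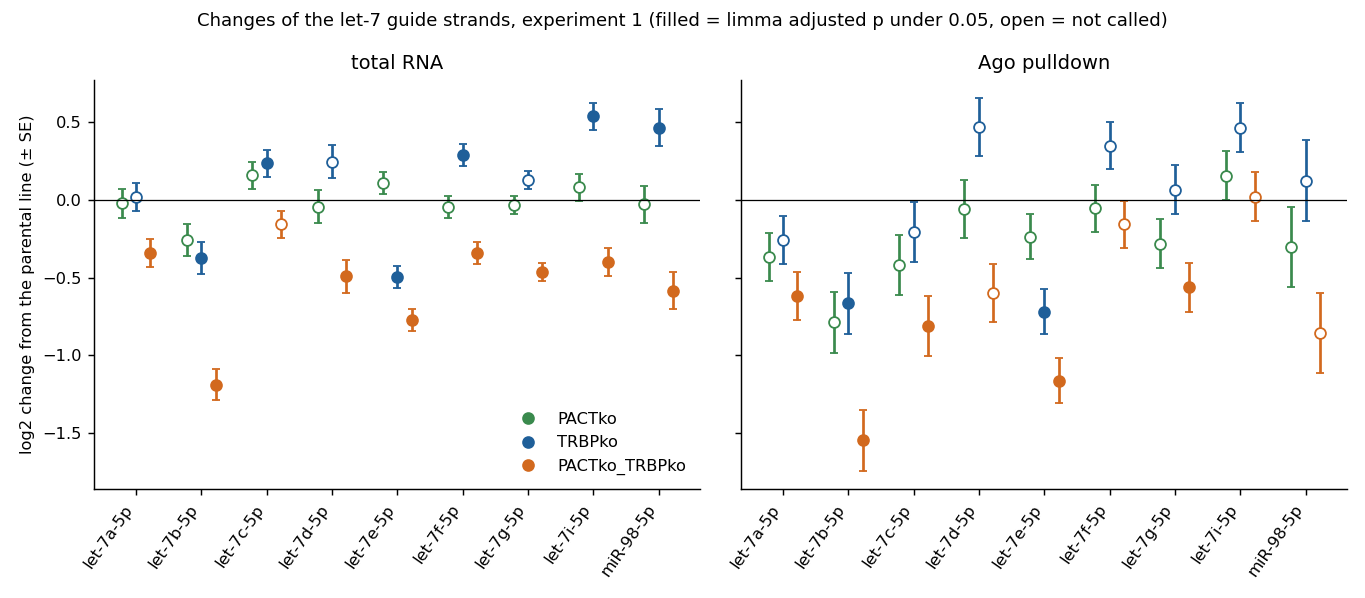
Log2 change of each member from the parental line in PACTko, TRBPko and PACTko_TRBPko cells, in total RNA (one panel) and Ago pulldown (the other). Bars are standard errors from limma and filled points have an adjusted p under 0.05; in total RNA 8 members are filled and below 0 in the double knockout, and let-7b-5p and let-7e-5p lie lowest in both fractions.

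In the pulldown of experiment 1 libraries of a line varied more and the same comparisons were less precise. For PACTko, limma called 0 of 9 members and 0% of all 897 miRNAs. edgeR also called 0 members, and 3 members were under an unadjusted p of 0.05. let-7b-5p had the smallest, with a log2 change of -0.79 (limma adjusted p = 0.135), and was called without parental dsGFPd replicate 1 (limma adjusted p = 0.0437). The members' median was -0.28 and that of all miRNAs -0.03.

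In TRBPko pulldown 2 of 9 members fell, where 2.68% of all miRNAs fell. let-7e-5p had levels of 7123, 12014 and 15098 in parental and 6294, 6668 and 7233 in TRBPko pulldown, where the 2 ranges overlapped. It fell by 0.72 (SE 0.14, limma adjusted p = 0.00145). let-7b-5p fell by 0.67 (limma adjusted p = 0.0435), but its log2 change was 0.01 among replicate 1 libraries and -1.35 among replicate 2 libraries, and the call was lost in 13 of 24 fits without 1 library (up to 0.163). It was also lost, at -0.57, with libraries scaled to the same sum (limma adjusted p = 0.0886). let-7i-5p (0.47) passed without parental dsGFPc replicate 1 (limma adjusted p = 0.0402). With libraries scaled to the same sum 1 member rose, let-7i-5p by 0.57, and 1 fell, let-7e-5p. With quantile normalization 2 rose, let-7f-5p by 0.68 and let-7i-5p by 0.52, and 1 fell, let-7e-5p. The members' median was 0.07 and that of all miRNAs -0.04.

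In PACTko_TRBPko pulldown 5 of 9 members fell, where 1.67% of all miRNAs fell, and the medians were -0.62 and -0.09. let-7b-5p went from 1110, 1880 and 2632 (lowest, median, highest) to 448, 549 and 812, with no overlap, and fell by 1.55 (SE 0.19, limma adjusted p = 1.29e-06). let-7e-5p went to 3821, 4906 and 6544, below every parental library, and fell by 1.16 (SE 0.14, limma adjusted p = 1.15e-06). let-7a-5p fell by 0.62, let-7c-5p by 0.81 and let-7g-5p by 0.56. These 3 calls were lost in 7, 6 and 20 of 24 fits without 1 library, with adjusted p of up to 0.0885, 0.0841 and 0.123. The 6 fits that lost let-7c-5p left out a replicate 1 library of the double knockout or a replicate 2 library of the parental line. let-7f-5p, at -0.16, and let-7i-5p, at 0.02, did not pass, although both fell in total RNA. let-7d-5p (-0.60) passed without parental dsGFPc replicate 1 (limma adjusted p = 0.0422) and miR-98-5p (-0.86) without parental mock replicate 1 (limma adjusted p = 0.0208).

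Against TRBPko pulldown 7 of 9 members fell, where 6.69% of all miRNAs fell, with a median of -0.60 beside -0.07. let-7d-5p fell by 1.07, miR-98-5p by 0.98, let-7b-5p by 0.88 and let-7g-5p by 0.63, and each held without any 1 library. let-7c-5p fell by 0.60, let-7f-5p by 0.51 and let-7e-5p by 0.44, calls lost in 8, 6 and 9 of 24 such fits (limma adjusted p up to 0.101, 0.0931 and 0.106). let-7i-5p (-0.44) passed without PACTko dsGFPc replicate 1 (limma adjusted p = 0.0334). Against PACTko pulldown only let-7e-5p fell, by 0.93 (limma adjusted p = 0.000118), where 0.446% of all miRNAs fell, and the medians were -0.39 and -0.05. let-7b-5p (-0.76) passed without any 1 parental replicate 1 library or TRBPko dsGFPc replicate 1 (limma adjusted p 0.0377 to 0.0492). The interaction passed for let-7d-5p alone, at -1.01 (limma adjusted p = 0.0289), where 1.23% of all miRNAs fell, and was lost in 7 of 24 fits (up to 0.0721).

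Whether pulldown moved more or less than total RNA was tested directly. The change of the pulldown to total ratio was called for 0 of 9 members in PACTko, in TRBPko and in PACTko_TRBPko, where 0%, 0% and 0% of 915 miRNAs were called. edgeR called 0 members in each, and 3, 0 and 3 members were under an unadjusted p of 0.05. In the double knockout those 3 were let-7c-5p at -0.65 (SE 0.22), let-7e-5p at -0.39 (SE 0.16) and let-7i-5p at 0.42 (SE 0.18). The fall of let-7 in the double knockout was thus not shown to differ between the fractions.

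**Figure D4:**
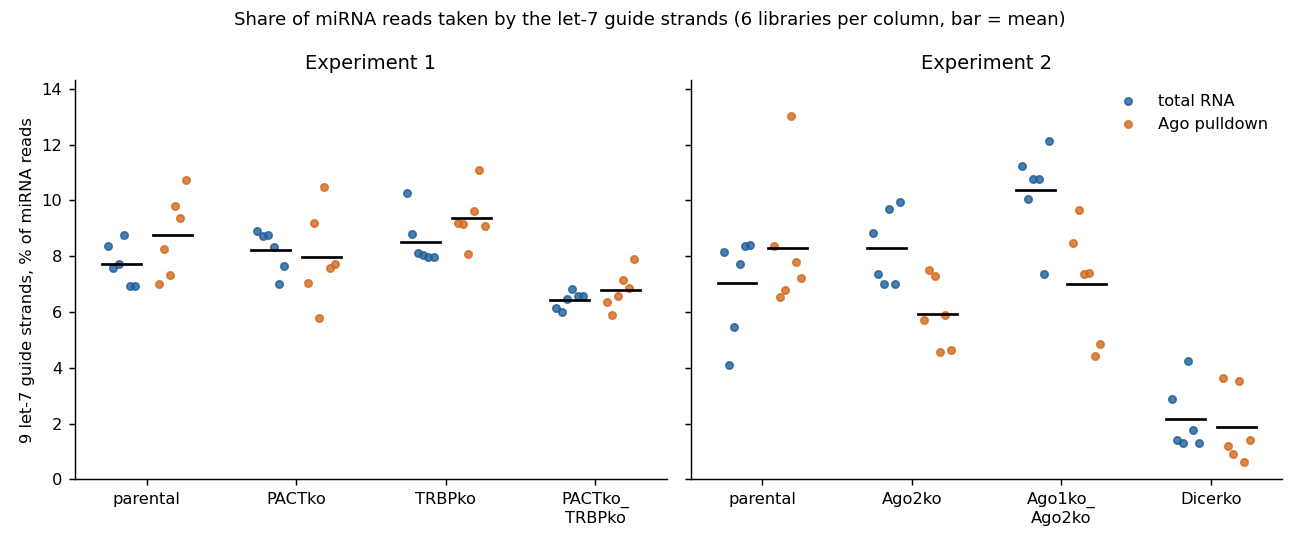
Share of miRNA reads taken by the 9 let-7 members together (percent), by cell line, for both experiments and both fractions. Points are the 6 libraries of a line and bars the mean; in experiment 1 total RNA the double knockout has the lowest mean, 6.44%, and in experiment 2 the Dicerko libraries have the lowest in both fractions.

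In experiment 2 the fractions of the Ago lines disagreed with each other, and this precedes their results. Over 575 miRNAs outside the family, the log2 changes of total RNA from the libraries labelled Ago1ko_Ago2ko had a Pearson r of 0.86 with those of pulldown from the libraries labelled Ago2ko, and of 0.66 with those of pulldown carrying their own label. The total RNA labelled Ago2ko had r = 0.77 with pulldown labelled Ago1ko_Ago2ko and 0.65 with its own. These r are across miRNAs, which are not independent, and the comparisons share the parental libraries. The labels were kept, and every direction below is that of the libraries as labelled.

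In total RNA labelled Ago2ko no member passed. limma called 0 of 9, where 19.3% of all miRNAs were called, edgeR called 0, and 1 member was under an unadjusted p of 0.05. This was let-7b-5p, at 650, 721 and 866 (lowest, median, highest) beside 382, 546 and 704 in the parental line. Its log2 change was 0.47 (SE 0.17, limma adjusted p = 0.0594), and it was called without parental mock replicate 1, parental dsGFPc replicate 2 or Ago2ko mock replicate 2 (limma adjusted p 0.0424 to 0.0486). The members' median was 0.12 and that of all miRNAs 0.06.

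In total RNA labelled Ago1ko_Ago2ko 8 of 9 members rose, where 25.8% of all miRNAs rose, and the medians were 0.69 and 0.04. let-7b-5p reached 1600, 1784 and 2754, above every parental library, and rose by 1.85 (SE 0.17, limma adjusted p = 1.92e-09). let-7i-5p went from 1175, 1526 and 1733 to 3603, 4390 and 6114, with no overlap, and rose by 1.58 (SE 0.14, limma adjusted p = 1.02e-09). let-7d-5p rose by 1.09 and let-7g-5p by 0.77, also with no overlap. Smaller rises were seen for miR-98-5p (0.69), let-7f-5p (0.59), let-7a-5p (0.58) and let-7e-5p (0.42). let-7e-5p (limma adjusted p = 0.0373) was lost without any parental replicate 1 library, without Ago1ko_Ago2ko dsGFPc replicate 1, or without its mock or dsGFPd replicate 2 (limma adjusted p 0.0543 to 0.101). let-7c-5p, at 5645 ± 1453 (SD, n = 6) beside 6044 ± 1416, had a log2 change of -0.10 and did not pass. Quantile normalization left 5 members called and edgeR 4, of which let-7b-5p, let-7d-5p and let-7i-5p were called in both. Against the total RNA labelled Ago2ko 6 of 9 members rose, where 19.9% of all miRNAs rose, led by let-7b-5p at 1.39 and let-7i-5p at 1.35, with medians of 0.72 and -0.02. The others were let-7d-5p (0.97), let-7g-5p (0.72), miR-98-5p (0.72) and let-7a-5p (0.51). let-7e-5p (0.39) passed there without parental dsGFPc replicate 1 or Ago2ko dsGFPd replicate 2 (limma adjusted p 0.0379 and 0.0415), and let-7f-5p (0.41) without Ago1ko_Ago2ko dsGFPc replicate 2 (limma adjusted p = 0.0105).

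**Figure D5:**
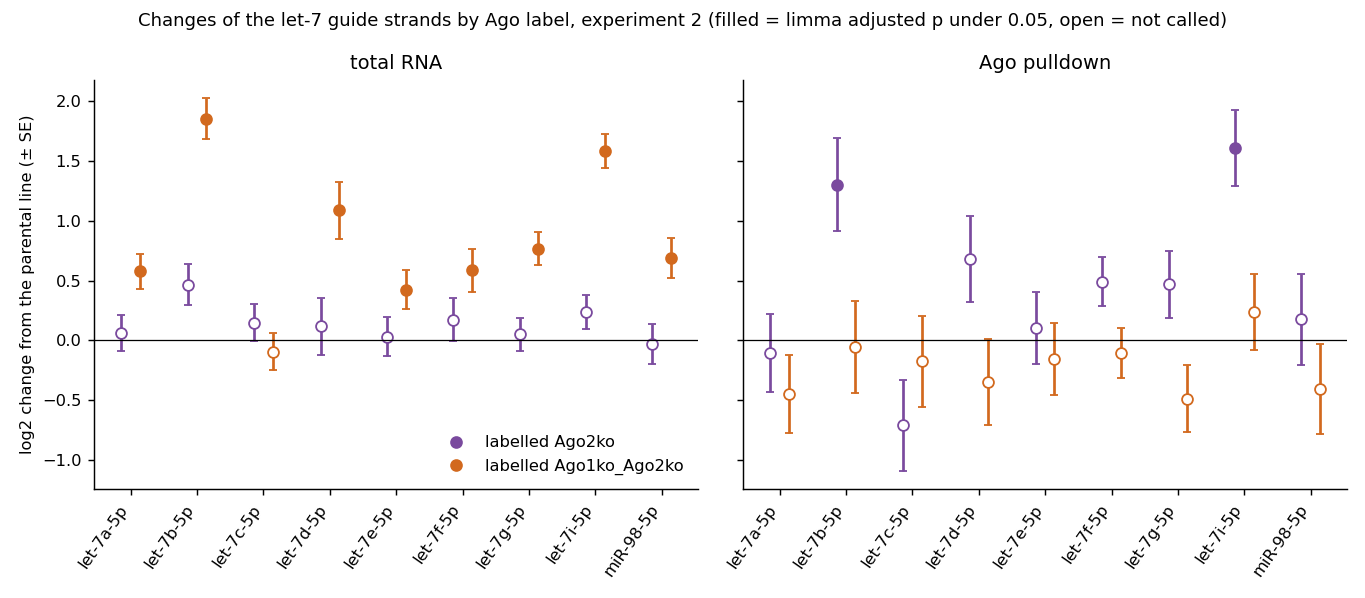
Log2 change of each member from the parental line in libraries labelled Ago2ko and Ago1ko_Ago2ko, in total RNA (one panel) and Ago pulldown (the other) of experiment 2. Bars are standard errors from limma and filled points have an adjusted p under 0.05; let-7b-5p and let-7i-5p are filled in the total RNA labelled Ago1ko_Ago2ko and in the pulldown labelled Ago2ko.

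In pulldown the parental libraries themselves differed by replicate number. let-7a-5p lay between 4676 and 6378 in the 3 parental replicate 1 libraries and between 12054 and 25444 in the 3 replicate 2 libraries, and let-7c-5p between 3285 and 5103 and between 10772 and 16952. let-7i-5p lay the other way, between 850 and 968 and between 395 and 830. The main fits below have no term for replicate number. Fits with it as a block are therefore given beside them for each Ago label against the parental line.

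In the pulldown labelled Ago2ko 2 of 9 members rose, where 15.3% of all miRNAs rose. let-7i-5p was at 1481, 2019 and 3334, above every parental library (395, 840 and 968), and rose by 1.61 (SE 0.32, limma adjusted p = 0.000415). let-7b-5p was at 1970, 2873 and 5043 beside 531, 1071 and 3183 and rose by 1.30 (SE 0.39, limma adjusted p = 0.0116). The members' median was 0.47 and that of all miRNAs -0.39. With the replicate block 4 members rose, let-7d-5p (0.68) and let-7f-5p (0.49) with the former 2, and let-7c-5p fell by 0.71. With libraries scaled to the same sum let-7i-5p (0.93) and let-7b-5p (0.63) were not called, and let-7a-5p (-0.78) and let-7c-5p (-1.38) fell. edgeR did not call let-7b-5p (0.94, adjusted p = 0.0622). Without parental mock replicate 2, let-7d-5p and let-7g-5p also passed (limma adjusted p = 0.0381 and 0.0215), and let-7f-5p passed without Ago2ko mock replicate 2 or either Ago1ko_Ago2ko dsGFPc library (limma adjusted p 0.0325 to 0.0480).

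In the pulldown labelled Ago1ko_Ago2ko no member passed. limma called 0 of 9, where 7.07% of all miRNAs were called, edgeR called 0, the replicate block left 0, and 0 members were under an unadjusted p of 0.05. let-7g-5p came nearest, with a log2 change of -0.49 (SE 0.28). let-7i-5p was at 492, 866 and 1277, across the parental range. Against the pulldown labelled Ago2ko 5 of 9 members fell, where 11.2% of all miRNAs fell, with medians of -0.60 and 0.32. let-7i-5p fell by 1.37, let-7b-5p by 1.36, let-7d-5p by 1.03, let-7g-5p by 0.96 and let-7f-5p by 0.60. The calls of let-7d-5p and let-7f-5p were lost in 8 and 12 of 18 fits without 1 library (limma adjusted p up to 0.110 and 0.128). With libraries scaled to the same sum none of the 5 passed, let-7f-5p turned to 0.04, and let-7c-5p rose by 1.17.

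The change of the pulldown to total ratio sets pulldown against total RNA of the same label. Whether the labels of 1 fraction are exchanged was not tested, so these values and their directions rest on the labels. For the Ago2ko label 1 of 9 members rose, let-7i-5p by 1.37 (SE 0.35, limma adjusted p = 0.00757), where 5.98% of 887 miRNAs rose. Scaling to the same sum left it at 0.54 and quantile normalization at 1.11, neither of them called. For the Ago1ko_Ago2ko label 4 of 9 members fell, where 8.23% of all miRNAs fell. let-7b-5p fell by 1.91 (SE 0.44, limma adjusted p = 0.00222), let-7i-5p by 1.34, let-7g-5p by 1.26 and let-7d-5p by 1.44. let-7d-5p (limma adjusted p = 0.0256) was lost in 6 of 36 fits without 1 library. These left out parental total dsGFPc or dsGFPd replicate 1, parental pulldown mock or dsGFPc replicate 2, Ago1ko_Ago2ko total mock replicate 2 or its pulldown mock replicate 1 (limma adjusted p 0.0564 to 0.0673). let-7a-5p (-1.03) and miR-98-5p (-1.09) passed without any 1 parental replicate 1 pulldown library, and let-7f-5p (-0.69) without Ago1ko_Ago2ko dsGFPc total replicate 2 or pulldown replicate 1 (limma adjusted p 0.0156 to 0.0456). let-7a-5p also fell with the replicate block (limma adjusted p = 0.0229) and with libraries scaled to the same sum (-1.07, limma adjusted p = 0.0276), 5 members in each. Quantile normalization left only let-7b-5p called.

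Dicerko libraries held few let-7 reads. In Dicerko total RNA the family had 1150 to 2888 reads a library, 1.31 to 4.23% of miRNA reads, beside 4.09 to 8.40% in the parental line. In pulldown it had 1452 to 6485 reads, 0.624 to 3.65%, beside 6.53 to 13.02%. The deposited scaling made 1 read of a Dicerko library worth 10.6 to 32.5 units of level in total RNA and 4.86 to 24.5 in pulldown, so levels there are coarse. The scaling also decides much of the count of calls, and both are given. Counts under other scalings come without the share of all miRNAs called. Same-sum scaling multiplies every miRNA of a library by 1 factor, so such counts do not set the members apart from other miRNAs. The Dicerko fits below had no filter on the mean level, and on simulated data such a fit called too many miRNAs of low count.

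As deposited, 3 of 9 members were called in total RNA, where 52.5% of all miRNAs were called. The medians were -0.13 for members and -0.77 for all miRNAs. let-7e-5p went from 2497, 4267 and 5248 (lowest, median, highest) to 537, 1105 and 1675, with no overlap, and fell by 1.88 (SE 0.24, limma adjusted p = 3.47e-07). let-7g-5p went from 1804, 2167 and 2626 to 553, 906 and 1696 and fell by 1.26 (SE 0.23, limma adjusted p = 5.94e-05). let-7b-5p, at 715, 1183 and 4263, rose by 1.34 (SE 0.32, limma adjusted p = 0.00122), but with libraries scaled to the same sum its value was -0.25 and not called. Under that scaling the other 8 members fell, by 0.997 for let-7d-5p and 1.95 for let-7c-5p at the ends of those not called as deposited. let-7d-5p (0.59) passed as deposited without Dicerko mock replicate 1 (limma adjusted p = 0.0354). Quantile normalization and edgeR each called 7 members, let-7a-5p, let-7c-5p, let-7f-5p, let-7i-5p and miR-98-5p among them, all lower in Dicerko cells.

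In Dicerko pulldown 4 of 9 members fell, where 39.6% of all miRNAs fell, with medians of -0.73 and -1.24. let-7e-5p went from 4696, 7416 and 18969 to 1008, 2623 and 3845, with no overlap, and fell by 1.77 (SE 0.36, limma adjusted p = 0.000329). let-7g-5p went from 543, 666 and 2141 to 58.6, 350 and 425, also with no overlap, and fell by 1.81 (SE 0.43, limma adjusted p = 0.00136). let-7a-5p fell by 0.94 (limma adjusted p = 0.0235) and let-7c-5p by 1.11 (limma adjusted p = 0.0276). Their Dicerko levels, 4067 to 5980 and 1735 to 5118, overlapped those of the parental replicate 1 libraries, 4676 to 6378 and 3285 to 5103. The parental replicate 2 libraries lay higher, at 12054 to 25444 and 10772 to 16952. Both calls were lost without any 1 of the 3 parental replicate 2 libraries, and that of let-7c-5p also without either Dicerko mock library (limma adjusted p 0.0524 to 0.0936). miR-98-5p (-0.73) passed without Dicerko dsGFPd replicate 1 (limma adjusted p = 0.0362). Under the same-sum scaling 9 members fell. let-7e-5p and let-7g-5p are the 2 members that fell in both fractions as deposited and under both other scalings. These values rest on few reads. A Dicerko library held 17 to 159 reads of let-7g-5p in total RNA and 6 to 68 in pulldown. For let-7e-5p the ranges were 26 to 157 and 86 to 478.

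Few members changed after long dsRNA. In total RNA of experiment 1, let-7e-5p and let-7g-5p fell, where 7.58% of all miRNAs fell. let-7e-5p averaged 5570 ± 1359 (SD, n = 8) after mock, 4857 ± 1308 after dsGFPc and 5310 ± 1578 after dsGFPd, over 4 lines. Its mean log2 change was -0.14 and that of let-7g-5p -0.14 (limma adjusted p = 0.0447 for each), and the calls were lost in 14 and 17 of 24 fits without 1 library (up to 0.108 and 0.105). In pulldown of experiment 1 0 of 9 members were called, where 11.3% of all miRNAs were, edgeR called 0, and 2 members were under an unadjusted p of 0.05. let-7b-5p (-0.36) passed without TRBPko dsGFPc replicate 1 (limma adjusted p = 0.0335). In experiment 2, without Dicerko, limma and edgeR called 0 of 9 members in total RNA, where limma called 3.48% of all miRNAs, and 4 members were under an unadjusted p of 0.05. The smallest was that of miR-98-5p, with a log2 change of -0.43 (SE 0.15, limma adjusted p = 0.106). In pulldown 0 of 9 were called by either tool, where limma called 0.4%, and 0 were under an unadjusted p of 0.05.

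The passenger arms of the same hairpins were rare. The tables hold 11 of them, and together they took 0.0545 to 0.183% of let-7 reads in total RNA of experiment 1 and 0.0136 to 0.188% in its pulldown. In PACTko_TRBPko total RNA let-7a-3p fell by 1.40, from 60 reads over 6 parental libraries to 26, where 8.53% of all miRNAs fell. The other 4 arms tested did not pass. In PACTko and TRBPko 0 of 5 passed, where 1.42% and 20.4% of all miRNAs were called. In total RNA labelled Ago1ko_Ago2ko 5 of 7 arms rose, where 25.8% of all miRNAs rose. These were let-7c-3p by 4.51, let-7e-3p by 2.43, let-7a-3p by 2.30, let-7f-2-3p by 1.99 and let-7d-3p by 1.24. Their folds rest on few reads, as all 11 arms together had 8297 over the 18 total RNA libraries with Dicer in experiment 2. The let-7c hairpin thus had a passenger arm that rose and a guide that did not pass. let-7c-3p also rose in total RNA labelled Ago2ko, by 3.02, where 85 of 632 miRNAs rose. In pulldown labelled Ago2ko it rose by 2.41, where 15.3% of all miRNAs rose. In Dicerko pulldown limma called 2 of 7 arms lower, let-7a-3p and miR-98-3p, where 39.6% of all miRNAs fell. Both had 0 reads in all 6 Dicerko libraries, where 1 read was worth 4.86 to 24.5, so no fold is given against their parental means of 6.16 and 5.44.

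Of miRNAs from the same host transcripts as members, none of miR-99a-5p, miR-99b-5p, miR-125a-5p and miR-125b-5p was called against the parental line in total RNA of PACTko, TRBPko or PACTko_TRBPko cells, and miR-100-5p was too low there to be tested. miR-99b-5p and miR-125a-5p lie beside let-7e on chromosome 19. In total RNA labelled Ago1ko_Ago2ko miR-99b-5p fell by 2.59, where let-7e-5p rose. In Dicerko total RNA miR-99b-5p fell by 2.57 and miR-125a-5p by 1.06, and miR-21-5p rose by 5.32 as deposited. miR-4458, the seed-sharing miRNA outside the family, had 171 reads over 6 Dicerko and 142 over 6 parental libraries, which the deposited scaling turns into a rise of 6.08.

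Across the 24 total RNA libraries of experiment 1 the members did not move as 1 block. Pairwise Pearson r of log2 levels ran from 0.31, for let-7e-5p with let-7i-5p, to 0.97, for let-7f-5p with miR-98-5p. Other miRNAs were ranked by Pearson r with the members' mean log2 level in the same 24 libraries. The 5 highest of 202 were miR-218-5p (r = 0.90), miR-204-5p (0.81), miR-151a-3p (0.81), miR-10a-5p (0.81) and miR-1287-5p (0.79). By rank the likeness was weaker, with a Spearman rho of 0.73, 0.52, 0.40, 0.68 and 0.65 in that order. miR-218-5p averaged 510 ± 64.1 (SD, n = 6) in the parental line, 450 ± 40.7 in PACTko, 509 ± 48.6 in TRBPko and 283 ± 29.1 in PACTko_TRBPko. miR-204-5p averaged 230 ± 41.6, 236 ± 37.6, 198 ± 44.3 and 87.3 ± 17.2 in that order. These r describe 24 libraries that share lines, scaling and depth.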

How the data were processed

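Small RNA libraries were made with a Lexogen kit, per the labels' protocols. STAR and GRCh38 are named in the submitters' processing notes without versions; the counter, annotation and normalization software are not given in the sources used here. The authors deposited 1 table per experiment with a signal of normalised counts per mature miRNA. Values in each column were whole multiples of 1 step (100% within 0.01 of a read), which gave back the whole reads. The table of experiment 3 was identical to that of experiment 2, so its 24 libraries were not analysed here. Of several rows with 1 name the row with most reads was kept, which left 2652 of 2883 rows and set 231 aside; 0 columns were unmapped. For let-7a-5p and let-7f-5p the other rows held 94.5 to 99.3% of the kept row's reads.

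Tests used limma 3.58.1 in R 4.3.3 on log2(value + 1), for miRNAs that reached 10 reads in 6 or more of the libraries fitted, with Benjamini-Hochberg adjustment over all of them and a threshold of 0.05, within 1 table only, as the tables were normalized separately. Fits of 1 experiment and fraction had terms for line and transfection, and dsRNA was tested by an F test of dsGFPc and dsGFPd together, with the direction of their mean. In experiment 2 the Ago lines were fitted without Dicerko libraries. Log2 changes are on the log2(value + 1) scale. In all 31 comparisons were made. Alternatives were a pseudocount of 10, no filter, libraries scaled to the same sum, quantile normalization, the replicate block, edgeR 4.0.16 on the recovered reads, all 24 libraries, and leaving out each library. On simulated data the Dicerko fit called too many miRNAs of low count, so a fit with a filter on the mean was added as an alternative after seeing the data. The Dicerko results above come from the fit without that filter. The 9 members were the named miRNAs in every comparison (those not called are given by their counts in places), with other miRNAs from lists (passenger arms, host transcript neighbours, pulldown controls, seed sharers, cell type markers). The family and the lists were chosen with earlier results of these data known, and its members by name.

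The 48 replicate pairs held 0 identical libraries (chi-square per degree of freedom 8.63 to 1640). Same-numbered libraries deviated together in the pulldown of experiment 2, where 36 of 36 pairs of groups had a correlation over 0.1 (0.106 to 0.610). The main fits had no term for this pairing, and the replicate block was an alternative fit. Read ranges above are the lowest and highest library and give no interval for counting error. Python 3.11.15, pandas 2.3.3, numpy 2.4.6 and matplotlib 3.10.9 were used.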

Additional observations from a re-analysis of the deposited data

Results flagged for a closer look

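Of 144 groups of 6 libraries (a member in a line and fraction), 15 had 1 library far from the others; chance alone gives about 1 in 20. In experiment 1 total RNA these were parental let-7g-5p at 4039 (mock replicate 2, others 3231 to 3526), PACTko_TRBPko let-7g-5p at 2754 (mock replicate 2, others 2408 to 2518), TRBPko let-7i-5p at 4080 (others 2754 to 3214) and TRBPko miR-98-5p at 3852 (others 2220 to 2541), the last 2 in the same library, mock replicate 1. In PACTko pulldown they were let-7c-5p at 13108 (mock replicate 2, others 7063 to 9303) and let-7i-5p at 1813 (dsGFPc replicate 1, others 874 to 1220).

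In experiment 2 total RNA they were let-7a-5p at 17581 in Ago2ko dsGFPd replicate 2 (others 12031 to 13457), let-7f-5p at 8072 in Ago1ko_Ago2ko dsGFPc replicate 2 (others 16004 to 18638), let-7i-5p at 6114 in Ago1ko_Ago2ko dsGFPd replicate 2 (others 3603 to 4525) and let-7b-5p at 4263 in Dicerko mock replicate 1 (others 715 to 2044). In its pulldown, parental mock replicate 2 was apart for let-7g-5p at 2141 (others 543 to 1033) and miR-98-5p at 864 (others 94.3 to 279). The others were let-7c-5p at 8036 in Ago2ko dsGFPc replicate 2 (others 3356 to 4959), let-7d-5p at 1422 in Dicerko mock replicate 2 (others 21.3 to 204) and miR-98-5p at 634 in Dicerko dsGFPd replicate 1 (others 53.5 to 136).

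Effects that differed between groups by a test of the difference itself were the PACT by TRBP interaction in total RNA for let-7b-5p (-0.56), let-7c-5p (-0.55), let-7d-5p (-0.69), let-7e-5p (-0.39), let-7f-5p (-0.59), let-7g-5p (-0.56), let-7i-5p (-1.02) and miR-98-5p (-1.02), and in pulldown for let-7d-5p (-1.01). The change between the lines differed between pulldown and total RNA for let-7i-5p under the Ago2ko label (1.37) and for let-7b-5p (-1.91), let-7d-5p (-1.44), let-7g-5p (-1.26) and let-7i-5p (-1.34) under the Ago1ko_Ago2ko label. These set total RNA against pulldown of the same label, and whether the labels of 1 fraction are exchanged was not tested. The causes were not tested.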

How the results depend on the processing

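Counts of members called kept within 1.5 times in 163 of 196 comparisons of settings and in 699 of 768 fits without 1 library. Counts under these settings are given without the share of all miRNAs called. The causes of the following changes were not tested. In total RNA, scaling to the same sum gave 1 call for PACTko, 4 for dsRNA in experiment 1 (0 with no filter), 1 for Ago2ko (1 also with quantile normalization) and 8 for Dicerko, where quantile normalization and edgeR gave 7 each. Ago1ko_Ago2ko had 5 calls with quantile normalization and 4 with edgeR, and against Ago2ko 3 with quantile normalization and 3 with all 24 libraries. In pulldown with no filter, TRBPko had 1 call, the double knockout 2 (3 with same-sum scaling and 3 with quantile normalization), its comparison with TRBPko 4 (4 with edgeR), the interaction 0 (0 with quantile normalization) and Ago1ko_Ago2ko against Ago2ko 3 (1 with same-sum scaling, 2 with quantile normalization, 2 with edgeR, 1 with all 24 libraries). Dicerko pulldown had 9 with same-sum scaling and 7 with quantile normalization. The ratio for Ago2ko had 2 with same-sum scaling and that for Ago1ko_Ago2ko 1 with quantile normalization.

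The replicate block gave 1 call for Ago2ko total RNA, 3 for the double knockout against PACTko in pulldown, 1 for dsRNA in experiment 1 pulldown and 5 for Ago2ko pulldown, and moved no other count by over 1.5 times. In experiment 1 total RNA, its pulldown and experiment 2 total RNA 11 of 66, 21 of 66 and 8 of 36 pairs of groups had same-numbered libraries correlated over 0.1. These correlations are over all miRNAs tested and do not exclude a shared deviation of the members. In parental pulldown of experiment 1 the family took 7.01, 8.26 and 7.33% of miRNA reads in replicate 1 (mock, dsGFPc, dsGFPd). In replicate 2 it took 9.79, 9.39 and 10.75%. PACTko dsGFPc pulldown went the other way, from 9.19 to 7.58%. The main fits there have no term for replicate number.

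Values not called in either fit could change sign, as the members' median for pulldown against total RNA in experiment 1 did with quantile normalization (-0.29 to 0.17). Where a call was made in either fit, 7 values turned in direction. With same-sum scaling the Dicerko values in total RNA were -0.25 for let-7b-5p, -0.997 for let-7d-5p and -1.58 for miR-98-5p (-1.03 with quantile normalization, -0.93 with edgeR), that of let-7b-5p in pulldown was -1.23, and let-7f-5p in Ago1ko_Ago2ko against Ago2ko pulldown was 0.037.

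Without 1 library, total RNA counts ranged from 5 to 6 for TRBPko, 7 to 9 for the double knockout against PACTko, 0 to 2 for dsRNA in experiment 1, 0 to 1 for Ago2ko, 7 to 8 for Ago1ko_Ago2ko and 3 to 4 for Dicerko. In pulldown they ranged from 0 to 1 for PACTko, 1 to 3 for TRBPko, 2 to 6 for the double knockout, 4 to 8 for it against TRBPko, 1 to 2 against PACTko, 0 to 1 for the interaction, 0 to 1 for dsRNA in experiment 1, 2 to 4 for Ago2ko, 3 to 5 for Ago1ko_Ago2ko against Ago2ko and 2 to 5 for Dicerko. For pulldown against total RNA they ranged from 6 to 7 and 4 to 6 in experiments 1 and 2, and for the ratio under Ago1ko_Ago2ko from 3 to 6. Depth limits Dicerko libraries most.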
